A study of Mus musculus with 1203 samples.

Results

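The enzymes that write, copy and remove DNA methylation were followed in single colon cells of mice: 7 genes of the 46517 in the table, comprising the de novo methyltransferases Dnmt3a and Dnmt3b, the maintenance methyltransferase Dnmt1 with its partner Uhrf1, and the dioxygenases Tet1, Tet2 and Tet3. The genes were taken by symbol, and the group was chosen by the measured level of Dnmt3a, which was higher in tuft wells, so its class differences are given as a description with no test. Cells came from 11-week-old female mice of 2 genotypes, labelled VillinCre;IPMKf/f and WT. In VillinCre;IPMKf/f the floxed gene for inositol polyphosphate multikinase (Ipmk) is meant to be deleted by Cre under the villin promoter, which is active in intestinal epithelium, tuft cells included. EPCAM+/SIGLEC-F+ cells (the tuft gate) and cells labelled epithelial (the epithelial gate, whose markers the labels do not give) were sorted 1 to a well and sequenced by Smart-seq2, a full-length cDNA method.

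Wells with at least 1000 genes above 0 TPM (a relative abundance per transcript length) were kept. They numbered 856 of 1203: 300 wells labelled VillinCre;IPMKf/f and the rest of 766 labelled WT in the tuft gate, and 51 labelled VillinCre;IPMKf/f and 39 labelled WT in the epithelial gate. The sort label alone did not define a tuft cell. Of the 766 kept tuft-gate wells, 60.97% had Trpm5, the tuft taste-transduction channel, at 50 TPM or more together with Dclk1, a tuft kinase marker, at 100 TPM or more; these are called tuft-identified (62% of wells labelled VillinCre;IPMKf/f and 60.3% of those labelled WT) and the remaining 39.03% are called other. All 15 tuft markers examined reached 5 TPM in tuft-identified wells of both genotypes. Other wells still carried tuft markers at lower levels (6 of 15 at 5 TPM in VillinCre;IPMKf/f, 8 of 15 in WT), beside colonocyte markers (9 of 9 at 5 TPM in VillinCre;IPMKf/f, 8 of 9 in WT), goblet markers and, in some wells, leukocyte markers. In the epithelial gate 19 of 90 wells also met the tuft thresholds, 18 of them labelled WT. The plates form 7 sets, of which sets 2, 4, 5 and 7 were VillinCre;IPMKf/f and sets 1, 3 and 6 WT. No label names an animal and no plate set holds both genotypes, so each genotype is 1 sample, genotype and plate set cannot be told apart, no p-value is given, and SDs describe plate sets, whose spread may be technical. The mean level of the targeted gene, Ipmk, was not lower in wells labelled VillinCre;IPMKf/f. Ipmk had a value in 17.2% of tuft-identified wells labelled VillinCre;IPMKf/f and 20.3% of those labelled WT. Among other wells the shares were 42.1% for VillinCre;IPMKf/f and 40% for WT. Ipmk plate-set means ran from 1.297 to 12.7 TPM in tuft-identified wells labelled VillinCre;IPMKf/f and from 1.68 to 2.23 TPM in those labelled WT. In other wells they ran from 11.6 to 30.2 TPM in wells labelled VillinCre;IPMKf/f and from 5.13 to 8.84 TPM in those labelled WT, so every VillinCre;IPMKf/f set was above every WT set. A gene-level value does not show a deleted exon, and below VillinCre;IPMKf/f and WT mean wells so labelled, on which every direction between genotypes rests. TPM keeps no read depth. The median number of genes detected, which stands in for it, ran over plate sets from 2147 to 2849 in tuft-identified wells and from 1624 to 3311 in other wells. The 18S ribosomal entry Rn18s-rs5 took 76.5% to 80.3% of TPM in tuft-identified plate sets and 69.1% to 79.9% in other ones, so the TPM of every other gene is small, and a level of 18.98 TPM for Dnmt3a became 96.5 TPM when ribosomal, mitochondrial and spike-in entries were left out.

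Cytosines in CpG dinucleotides are methylated de novo by DNMT3A and DNMT3B. At replication UHRF1 binds the half-methylated site and recruits DNMT1, which restores the mark, so both are usually abundant in dividing cells and low in cells that have left the cycle. TET enzymes oxidise 5-methylcytosine, which starts its removal. The colonic lining renews continuously from crypt stem cells, and most mature tuft cells, chemosensory cells with an apical tuft, are not dividing.

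In tuft-identified wells Dnmt3a and Tet3 stood well above the other members, Tet2 was intermediate, Dnmt1 was low, and Tet1, Uhrf1 and Dnmt3b were near 0. Since TPM is scaled per transcript length, levels can be set between genes. Mean levels over the 7 plate sets in tuft-identified wells were 18.98 ± 5.35 TPM for Dnmt3a, 14.7 ± 3.65 for Tet3, 2.94 ± 0.559 for Tet2, 1.15 ± 0.247 for Dnmt1, 0.307 ± 0.410 for Tet1, 0.196 ± 0.310 for Uhrf1 and 0.0642 ± 0.0666 for Dnmt3b (SD, n = 7). Dnmt3a was above Tet3 in 5 of 7 plate sets and their ranges overlapped, so these neighbours did not differ beyond their spread. Tet3 was above Tet2, and Tet2 above Dnmt1, in all 7 plate sets without overlap, whereas Dnmt1, Tet1, Uhrf1 and Dnmt3b overlapped their neighbours in that order. In other wells the order was Dnmt3a at 8.39 ± 6.27 TPM, Tet3 at 5.52 ± 2.52, Tet2 at 2.69 ± 0.556, Uhrf1 at 2.06 ± 1.62, Dnmt1 at 1.41 ± 0.922, Tet1 at 0.214 ± 0.355 and Dnmt3b at 0.0268 ± 0.0458. Only Tet3 over Tet2 was free of overlap there, and Uhrf1 ranked above Dnmt1 instead of below Tet1.

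**Figure D1:**
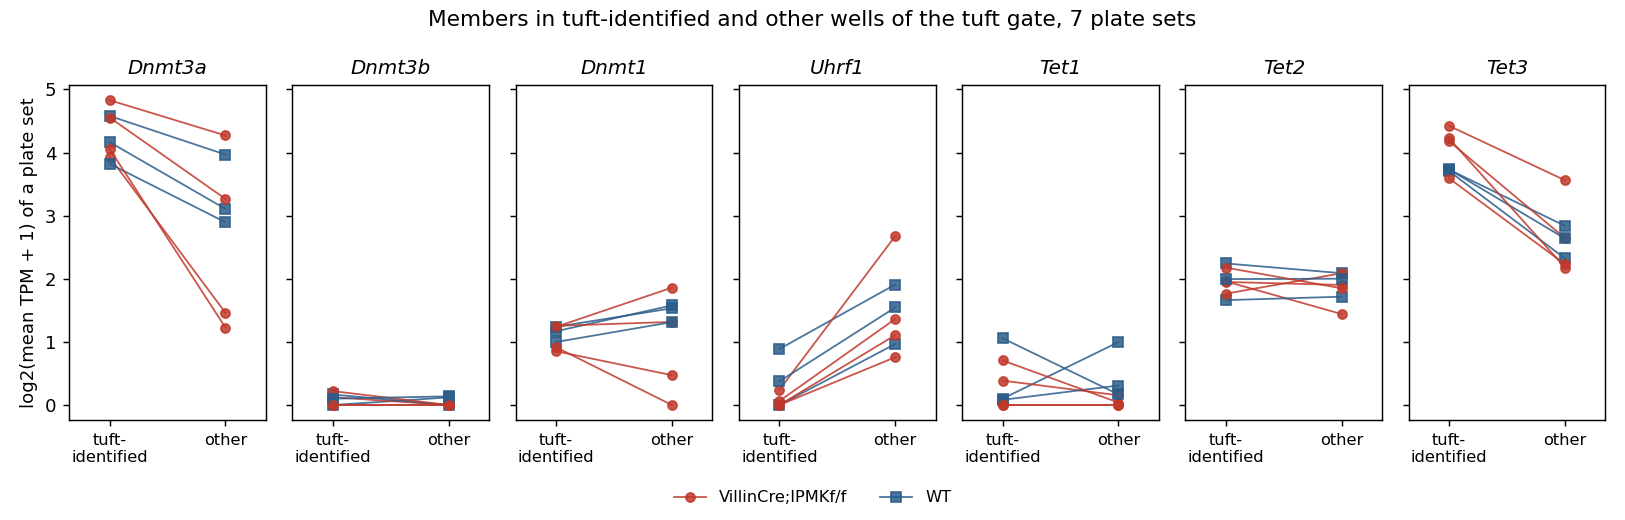
Level of each member as log2(mean TPM + 1) in tuft-identified wells (left of each panel) and other wells (right) of the tuft gate; each line is 1 of the 7 plate sets, 4 labelled VillinCre;IPMKf/f (circles) and 3 WT (squares). Dnmt3a and Tet3 were higher in tuft-identified wells in 7 of 7 plate sets and Uhrf1 was lower in 7 of 7, while Tet2 had about the same level in both classes.

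Dnmt3a, the de novo methyltransferase on chromosome 12 (chr12:3806007-3914443, plus strand, GRCm38, ENSMUSG00000020661), was detected in 69.2% of tuft-identified wells (exact 95% interval 64.8% to 73.3%) and in 36.8% of other wells (31.3% to 42.5%). Intervals here are Clopper-Pearson and cover counting error only. In tuft-identified wells its plate-set means were 14.2, 27.4, 22.5 and 15.7 TPM in VillinCre;IPMKf/f sets 2, 4, 5 and 7 and 22.9, 16.9 and 13.1 TPM in WT sets 1, 3 and 6. In other wells they were 1.75, 18.3, 8.62 and 1.34 TPM in VillinCre;IPMKf/f and 14.6, 7.62 and 6.44 TPM in WT. Every plate set was higher in its tuft-identified wells, but the 2 ranges overlapped because sets 1 and 4 were high in other wells too. The mean log2 difference, tuft-identified minus other, was 1.39 (SD 0.90, n = 7), from 0.56 in set 4 to 2.83 in set 7. Dnmt3a met the size rule used for the class comparison (a mean of at least 5 TPM in 1 class, at least a 2-fold difference in mean TPM + 1, and the same sign in every plate set), and stood within the highest 11.97% of the 4528 genes tested. It did not meet the rule in wells with at least 2000 genes (1.54, SD 1.60), where the sign was not the same in every plate set, or with a pseudocount of 10 TPM (0.71). In this comparison 12.2% of genes met the rule as higher and 12.8% as lower, and 2 of the 7 members, Dnmt3a and Tet3, did so as higher and 0 as lower; the comparison chose the group, so nothing is read from that count.

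The Dnmt3a signal was unevenly spread over wells. Among wells with a value its median was 10.4 TPM (quartiles 3.49 and 31.98) in tuft-identified wells and 4.88 TPM (quartiles 2.05 and 16.9) in other wells. At 100 TPM or more were 13 tuft-identified wells and 5 other wells, and the 10 highest wells held 26.3% of the summed TPM in tuft-identified wells and 62.95% in other wells. Leaving out the highest well of each plate set and class, an alternative chosen after seeing the data, gave a log2 difference of 1.78, against 1.39 with all wells. Wells close to the thresholds did not separate: 18 wells just inside (Trpm5 of 50 to 100 and Dclk1 of 100 to 200 TPM) averaged 8.73 TPM of Dnmt3a with 50% detected, and 54 wells just outside (not identified, with Trpm5 of at least 25 and Dclk1 of at least 50 TPM) averaged 8.79 TPM with 53.7% detected. Without the 3 VillinCre;IPMKf/f wells that carried leukocyte markers, other wells of set 4 averaged 3.37 TPM in place of 18.3.

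RefSeq lists several Dnmt3a starts, and a gene-level TPM sums over them, so it does not say which promoter was in use. The sequences just upstream of the distal start and of the internal one are shown because they differ in CpG density, the substrate of the enzyme itself; capitals mark CpG. They are credited to RefSeq, build GRCm38.p6, plus strand, and all 7 members matched that table with 12 windows. The 300-base window of the distal start held 46 CpGs, more than 98.4% of 32851 mouse promoter windows, and that of the internal start held 18, more than 70.3%, against a median of 7.
Dnmt3a distal start, chr12:3806730-3806979: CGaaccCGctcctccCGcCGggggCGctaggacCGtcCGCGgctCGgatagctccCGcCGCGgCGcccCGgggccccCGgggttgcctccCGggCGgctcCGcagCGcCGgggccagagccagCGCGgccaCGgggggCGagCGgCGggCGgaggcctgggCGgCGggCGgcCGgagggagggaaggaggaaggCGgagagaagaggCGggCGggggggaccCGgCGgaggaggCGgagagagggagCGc
Dnmt3a internal start, chr12:3891494-3891727: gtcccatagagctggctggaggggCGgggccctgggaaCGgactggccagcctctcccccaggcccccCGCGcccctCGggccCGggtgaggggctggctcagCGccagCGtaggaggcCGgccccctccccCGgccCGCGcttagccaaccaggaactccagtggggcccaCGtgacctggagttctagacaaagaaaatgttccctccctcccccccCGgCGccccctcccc

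The second de novo enzyme, Dnmt3b (chr2:153649450-153687730, plus strand, ENSMUSG00000027478), was almost undetected. It had a value in 2.14% of tuft-identified wells (10 wells) and 1.34% of other wells (4 wells), never above 9.08 TPM. In other wells labelled VillinCre;IPMKf/f it was listed at 0 in every well, which allows a share of wells with a value of up to 2.63% by the limit of 3 counts of the total (3.18% by the exact interval). Dnmt3l, the catalytically inactive partner of the de novo enzymes, and the processed copy Dnmt3a-ps1 were listed at 0 in all 766 tuft-gate wells. The antisense gene Dnmt3aos, inside Dnmt3a, had a value in 3 tuft-identified and 1 other well. Use of strand in the counting was stated nowhere in the labels, so reads of the antisense gene and of Dnmt3a cannot be told apart.

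Uhrf1 (chr17:56303321-56323486, plus strand, ENSMUSG00000001228), the reader of half-methylated CpG that guides DNMT1, ran opposite to Dnmt3a. It had a value in 1.71% of tuft-identified wells (0.742% to 3.35%, 8 wells) and in 13.4% of other wells (9.73% to 17.8%, 40 wells). Wells close to the thresholds did not separate. Uhrf1 had a value in 22.2% of the 18 wells just inside (6.41% to 47.6%, 4 wells). Of the 54 wells just outside, 18.5% had it (9.25% to 31.4%, 10 wells). Plate-set means in tuft-identified wells were 0.0445, 0.182, 0 and 0 TPM in VillinCre;IPMKf/f sets 2, 4, 5 and 7 and 0, 0.850 and 0.297 TPM in WT sets 1, 3 and 6. In other wells they were 1.57, 5.39, 1.15 and 0.691 TPM in VillinCre;IPMKf/f and 0.954, 2.76 and 1.92 TPM in WT. Each plate set was lower in its tuft-identified wells, with a mean log2 difference of -1.25 (SD 0.55, n = 7) and set 4 the lowest at -2.44. Neither class averaged 5 TPM, so Uhrf1 was below the level floor and could not meet the size rule; with a floor of 2 TPM it did, as lower. Uhrf1 was also the member with the largest shift on rescaling without ribosomal, mitochondrial and spike-in entries, to a log2 difference of -2.62, at which it passed the floor.

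The promoter of Uhrf1 carries a match to the E2F site, through which E2F factors act on many genes of DNA replication, and is shown for that reason. The words TTTCGCGC and TTTGGCGC were searched on both strands. At least 1 of them stood in 0.813% of 32851 windows of 300 bases, in 1 of the 2 Uhrf1 windows and in 1 of the 3 Dnmt1 windows, and in none of the windows of the other 5 members. The sequence runs from 250 bases before the second Uhrf1 start to the start (RefSeq, GRCm38.p6, plus strand), with the match in capitals. A match describes the letters and is no evidence of binding.
Uhrf1 second start, chr17:56304063-56304312: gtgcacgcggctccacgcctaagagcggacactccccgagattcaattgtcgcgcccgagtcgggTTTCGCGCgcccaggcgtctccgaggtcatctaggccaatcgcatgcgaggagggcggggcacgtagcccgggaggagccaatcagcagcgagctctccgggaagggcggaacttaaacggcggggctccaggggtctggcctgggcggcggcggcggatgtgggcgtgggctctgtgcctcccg

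Dnmt1 (chr9:20907209-20959888, minus strand, ENSMUSG00000004099), the maintenance methyltransferase, did not follow Uhrf1 between classes. It was detected in 30.4% of tuft-identified wells (26.3% to 34.8%) and 26.1% of other wells (21.2% to 31.5%). In tuft-identified wells its plate-set means were 1.36, 1.39, 0.805 and 0.886 TPM in VillinCre;IPMKf/f sets 2, 4, 5 and 7 and 1.25, 1.36 and 0.998 TPM in WT sets 1, 3 and 6. In other wells they were 2.63, 1.49, 0.387 and 0 TPM in VillinCre;IPMKf/f and 1.99, 1.89 and 1.49 TPM in WT. The ranges overlapped, the sign was not the same in every plate set, and the mean log2 difference of -0.058 was far smaller than its SD of 0.53. The difference was 0.15 (SD 0.65, n = 4) in VillinCre;IPMKf/f and -0.34 (SD 0.062, n = 3) in WT. All 3 WT sets were negative, and sets 5 and 7 alone were positive.

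Tet3 (chr6:83362373-83459084, minus strand, ENSMUSG00000034832), the oxidase abundant in oocytes and many differentiated tissues, was the other member that met the size rule. It had a value in 80.1% of tuft-identified wells (76.2% to 83.6%) and 65.9% of other wells (60.2% to 71.2%). Plate-set means in tuft-identified wells were 20.4, 11.0, 17.1 and 17.7 TPM in VillinCre;IPMKf/f sets 2, 4, 5 and 7 and 12.3, 12.04 and 12.3 TPM in WT sets 1, 3 and 6. In other wells they were 10.8, 3.69, 5.25 and 3.53 TPM in VillinCre;IPMKf/f and 6.15, 4.003 and 5.23 TPM in WT. The lowest tuft-identified set, at 11.0 TPM, lay just above the highest other set, at 10.8 TPM, so the classes did not overlap. The mean log2 difference was 1.31 (SD 0.41, n = 7), between 0.86 and 2.04, less variable than that of Dnmt3a, and stood within the highest 13.2% of genes tested. It did not meet the rule in wells with at least 2000 genes (0.95) or with a pseudocount of 10 TPM (0.67). Among wells with a value the median was 8.44 TPM in tuft-identified and 4.32 TPM in other wells. Near the thresholds the 18 wells just inside averaged 13.4 TPM and the 54 just outside 5.78 TPM.

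Tet2 (chr3:133463679-133545139, minus strand, ENSMUSG00000040943), the TET gene often mutated in blood cancers of humans, was at nearly the same mean level in both classes. Plate-set means in tuft-identified wells were 2.89, 2.86, 2.40 and 3.52 TPM in VillinCre;IPMKf/f sets 2, 4, 5 and 7 and 3.73, 2.16 and 2.99 TPM in WT sets 1, 3 and 6. In other wells they were 1.72, 2.74, 3.25 and 2.60 TPM in VillinCre;IPMKf/f and 3.25, 2.29 and 3.00 TPM in WT. The ranges overlapped almost fully and the log2 difference was 0.094 (SD 0.27, n = 7). Among other wells, however, Tet2 differed with the 2 tuft genes. Averaged over wells it was at 4.66 TPM where neither Trpm5 nor Dclk1 had a value (20.4% of tuft-gate wells) and at 0.812 TPM where both had one without reaching the thresholds (17.6%), beside 2.87 TPM in tuft-identified wells. The corresponding shares of wells with a value were 55.1%, 31.1% and 54.6%, with a median of 2743, 2251 and 2669 genes detected.

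Tet1 (chr10:62804570-62908996, minus strand, ENSMUSG00000047146), the TET gene of pluripotent cells, had a value in 5.14% of tuft-identified wells (24 wells) and 3.34% of other wells (10 wells). A single tuft-identified well reached 108.4 TPM, and the 10 highest wells held 92.7% of the summed TPM of that class, so its plate-set means, which ran from 0 to 1.08 TPM in tuft-identified and from 0 to 0.996 TPM in other wells, rest on a few wells.

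Because a transcript is missed more often in a poorly captured cell, shares were compared between wells with like numbers of detected genes. The share with Dnmt3a was higher in tuft-identified wells in each range, as a description of the contrast that chose the group. It was detected in 52% of tuft-identified and 25.2% of other wells with 1000 to under 2000 genes, in 68.9% and 30.3% with 2000 to under 3500, and in 88.6% and 54.8% with 3500 or more. Its mean level was 17.2 TPM in tuft-identified and 5.16 TPM in other wells of the lowest range, 18.6 TPM in tuft-identified and 14.4 TPM in other wells of the middle one, and 18.8 TPM in tuft-identified and 8.25 TPM in other wells of the highest. In wells with at least 2000 genes the class difference of Dnmt3a was 1.54 (SD 1.60, n = 7) and did not meet the size rule. For Tet3 the shares were 68.8% and 42.02%, 82.5% and 71.1%, and 87.7% and 89.4%, so the detection gap was not seen in the richest wells, while its mean level there was still 11.5 TPM in tuft-identified and 5.65 TPM in other wells. Uhrf1 was lower in tuft-identified wells in every range: 0 wells, which allows a share of up to 2.4% by the limit of 3 counts of the total (2.91% by the exact interval), against 4.20% of other wells, then 0.877% against 7.89%, then 5.26% against 27.9%. Dnmt1 had nearly the same share in both classes in the lowest range (13.6% and 13.4%) and the highest (49.1% and 51.9%), and differed in the middle one (30.3% and 10.5%).

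**Figure D2:**
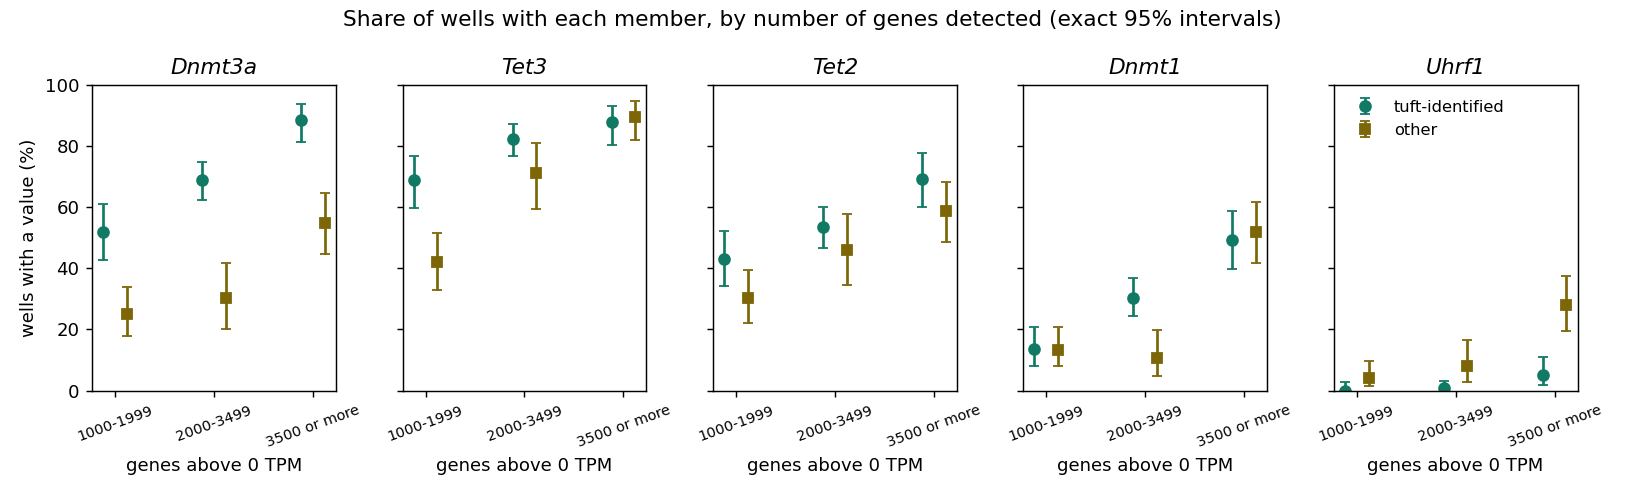
Percent of wells with a value for 5 members (y axis) in 3 ranges of genes above 0 TPM (x axis); circles are tuft-identified wells, squares other wells, and bars exact 95% intervals. Dnmt3a stays higher in tuft-identified wells in every range, Tet3 meets at 3500 or more genes (87.7% and 89.4%), and Uhrf1 reaches 27.9% only in other wells.

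Other wells of the tuft gate were then divided by the summed level of the marker lists, with levels chosen after the sums had been seen: leukocyte markers at 100 TPM or more (15 wells), then goblet markers at 500 (27 wells), colonocyte markers at 500 (46.5% of other wells), tuft markers at 200 (52 wells), and no list at its level (66 wells). Dnmt1 separated these wells more than it separated tuft-identified from other wells. It had a value in 4.32% of colonocyte-marker wells (6 wells), in 37.04% of goblet-marker wells, 40% of leukocyte-marker wells, 42.3% of tuft-marker wells and 51.5% of wells with no list at its level, against 30.4% of tuft-identified wells. The median number of detected genes was 2329 in colonocyte-marker wells and 1775.5 in tuft-marker wells, but 2669 in tuft-identified wells, 2780.5 in wells with no list at its level, 3363 in goblet-marker and 3792 in leukocyte-marker wells, and its part in these shares was not tested. Uhrf1 was likewise scarce in colonocyte-marker wells, at 2.16%, close to the 1.71% of tuft-identified wells. It had a value in 7.41% of goblet-marker, 13.3% of leukocyte-marker and 19.2% of tuft-marker wells (10 of 52). Where both Trpm5 and Dclk1 had a value without reaching the thresholds its share was 17.8%, and where neither had one 9.62%. It was most frequent in wells with no list at its level, at 34.8% with a mean of 7.69 TPM. Of these 66 wells 13 carried the transcripts of cell division described below, and the proliferation marker Mki67 had a value in 42.4% of them, against 6.47% of colonocyte-marker and 2.78% of tuft-identified wells.

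Dnmt3a was detected in 66.7% of the 15 leukocyte-marker wells, near its share in tuft-identified wells, and in 51.9% of tuft-marker, 33.1% of colonocyte-marker, 29.6% of goblet-marker and 28.8% of wells with no list at its level. The leukocyte-marker mean of 50.6 TPM rested on 1 well at 540.2 TPM, and was 15.7 TPM without it. Tet2 was highest in the same 15 wells, at 73.3% and 9.99 TPM (5.77 TPM without the highest well), followed by colonocyte-marker wells at 52.5% and 3.88 TPM, with tuft-marker wells at 28.8% and 0.839 TPM. Of the 5 members plotted, Tet3 varied least, from 62.6% to 73.3% of wells among the 5 kinds of other well, all below its 80.1% in tuft-identified wells. Without the leukocyte-marker wells the Dnmt3a class difference was 1.75 on the log2 scale and that of Tet3 1.297, both still meeting the size rule.

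**Figure D3:**
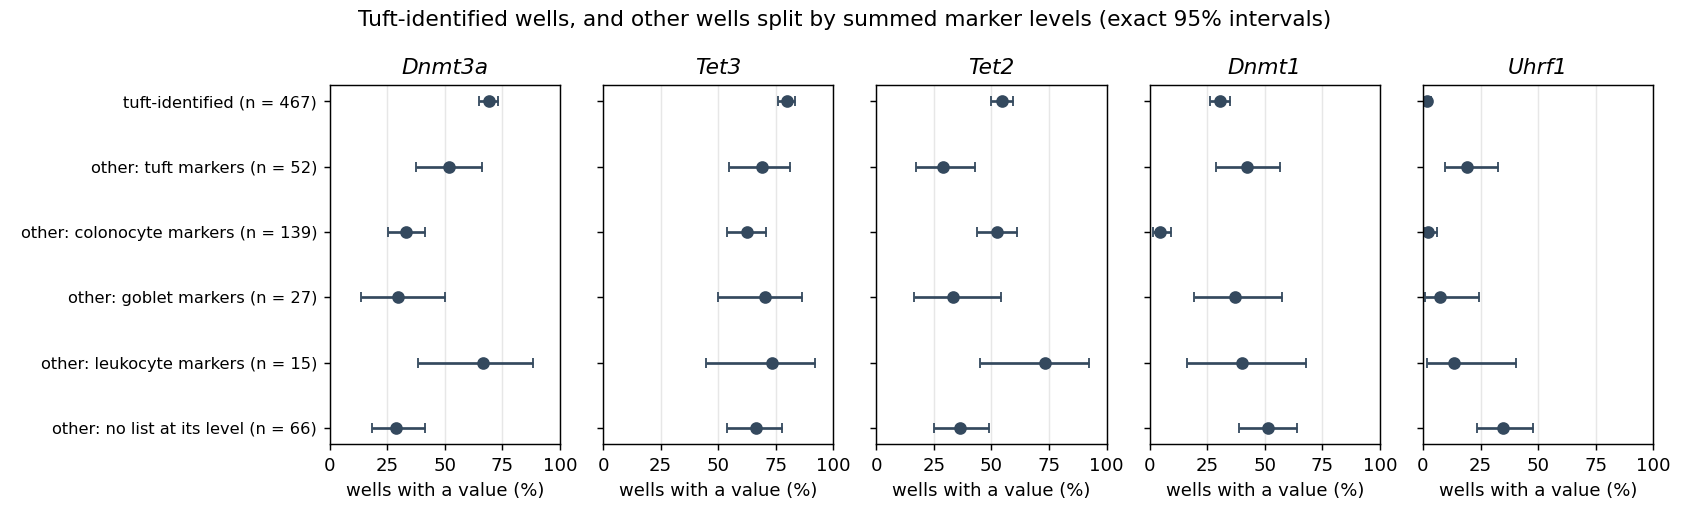
Percent of wells with a value for 5 members (x axes) in tuft-identified wells (top) and in other wells of the tuft gate divided by summed marker level (rows below, with the number of wells); bars are exact 95% intervals. Dnmt1 and Uhrf1 are near 0 in colonocyte-marker wells (4.32% and 2.16%) and most frequent where no list reached its level (51.5% and 34.8%).

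Wells with transcripts of cell division carried Dnmt1 together with Uhrf1. Wells were counted as cycling when at least 3 of 6 genes of mitosis and S phase (Mki67, Top2a, Ccnb1, Cdk1, Ccna2 and Rrm2) exceeded 10 TPM, which held for 2 tuft-identified wells (0.428%) and 17 other wells (5.69%), from 5 plate sets. In the 17 cycling other wells Uhrf1 was detected in 88.2% (21.6 TPM on average) and Dnmt1 in 82.4% (8.56 TPM), against 8.87% (1.01 TPM) and 22.7% (1.03 TPM) in non-cycling other wells. Dnmt3a was at 0.826 TPM in cycling and 9.05 TPM in non-cycling other wells, detected in 29.4% (10.3% to 55.96%) of cycling and 37.2% (31.6% to 43.2%) of non-cycling ones, shares whose intervals overlapped. In tuft-identified wells it was at 41.75 TPM in the 2 cycling wells and 18.2 TPM in non-cycling ones. Cycling other wells had a median of 4505 detected genes, against 2384 in non-cycling ones. Tet3 averaged 3.67 TPM in cycling and 5.40 TPM in non-cycling other wells. Both cycling tuft-identified wells had Dnmt1, Uhrf1, Dnmt3a and Tet3. Their median number of detected genes was 6617.5, against 2659 in non-cycling tuft-identified wells, and its part in these values was not tested. Without cycling wells, Uhrf1 had a value in 1.29% of tuft-identified and 8.87% of other wells. The rule of 3 of 6 genes can leave dividing cells among the rest, and the part of cell division in this difference was not tested.

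Within wells, Uhrf1 was found in 37.2% of other wells with Dnmt1 (29 of 78, 26.5% to 48.9%) and in 4.98% of those without it (11 wells, 2.51% to 8.73%). In tuft-identified wells the shares were 4.93% of those with Dnmt1 (7 wells) and 0.308% of those without (1 well). Most wells with Dnmt1 thus lacked Uhrf1 in both classes, and Uhrf1 was rare in tuft-identified wells as a whole, at 1.71%. Wells with Dnmt1 had more detected genes, a median of 4174 against 2164 in other wells and 3092 against 2450 in tuft-identified wells, and the part of the number of detected genes in this pairing was not tested. Tet2 was about as frequent with Dnmt3a as without it, at 56.04% with and 51.4% without in tuft-identified wells, and 43.6% with and 44.4% without in other wells.

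The sort label gave the same direction for Dnmt3a on plates that held both gates. On the first plates of the 7 sets Dnmt3a averaged 18.1 ± 11.4 TPM in the tuft gate and 5.77 ± 6.43 TPM in the epithelial gate (SD, n = 7), a log2 difference of 1.76 (SD 1.07), higher in 7 of 7 sets, within the highest 3.88% of 4999 genes. It was the 1 member to meet the size rule as higher, which 0.84% of genes did, and 0 members met it as lower, which 1.78% did; the label is part of how the group was chosen, and nothing is read from this. Tet3 averaged 12.6 ± 4.14 TPM in the tuft gate and 6.61 ± 3.01 TPM in the epithelial gate, a log2 difference of 0.87 (SD 0.77), higher in 6 of 7 sets and short of 2-fold; without plate set 6 it was 1.03 and met the rule. Uhrf1, at 0.714 TPM in the tuft gate and 3.37 TPM in the epithelial gate, was lower in the tuft gate in 6 of 7 sets (log2 difference -1.21, SD 1.15). Dnmt1, at 0.964 TPM in the tuft gate and 2.10 TPM in the epithelial gate, was also lower in 6 of 7 (-0.52, SD 0.78).

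None of the 7 genes met the size rule for a genotype difference in tuft-identified wells. Dnmt3a and Tet3 alone reached its level floor, so the other members could not meet it. That rule asked for 5 TPM in 1 genotype, at least a 1.5-fold difference and plate-set means that do not overlap; 1.67% of 4132 genes met it as higher in VillinCre;IPMKf/f and 2.59% as lower, and 5.49% had plate sets that did not overlap, which held for 0 members. Dnmt3a averaged 19.96 ± 6.16 TPM in VillinCre;IPMKf/f and 17.7 ± 4.93 TPM in WT (SD, n = 4 and 3 plate sets), a log2 difference of 0.15 (SD 0.41). Tet3 averaged 16.6 ± 3.96 TPM in VillinCre;IPMKf/f and 12.2 ± 0.138 TPM in WT, a log2 difference of 0.38 (SD 0.28). Sets 2, 5 and 7 of VillinCre;IPMKf/f were above every WT set and set 4 was below all of them, and without the highest well of each plate set the Tet3 difference was -0.068. Tet2 averaged 2.92 ± 0.462 TPM in VillinCre;IPMKf/f and 2.96 ± 0.785 TPM in WT, and Dnmt1 averaged 1.11 ± 0.306 TPM in VillinCre;IPMKf/f and 1.20 ± 0.186 TPM in WT.

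Among other wells of the tuft gate no member met the size rule either (2.77% of 4187 genes met it as higher and 2.6% as lower). Again Dnmt3a and Tet3 alone reached the level floor. Dnmt3a averaged 7.50 ± 7.93 TPM in VillinCre;IPMKf/f and 9.57 ± 4.44 TPM in WT, a log2 difference of -0.77 (SD 1.19). The well at 540.2 TPM in VillinCre;IPMKf/f set 4 weighed on this value: without the highest well of each plate set the difference was -1.40 (SD 0.72) and met the rule as lower, and without leukocyte-marker wells it was -1.19 and did not. Tet1 was the 1 member whose plate sets did not overlap, which 6.23% of genes also did, but at 0.0350 TPM in VillinCre;IPMKf/f and 0.453 TPM in WT it lay near 0. The makeup of these wells moved with genotype: 5 of 9 colonocyte markers met the rule as higher in VillinCre;IPMKf/f and 2 of 15 tuft markers as lower, and the tuft-marker sum ran from 94.3 to 234.2 TPM in VillinCre;IPMKf/f plate sets and from 240.1 to 407.9 TPM in WT ones. The part of this in the Dnmt3a difference was not tested.

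In the epithelial gate Dnmt3a, Tet2 and Tet3 alone reached the level floor. Tet3 met the rule there as lower, the 1 member of 7 to do so, beside 5.73% of 5493 genes. As higher, 2.68% met it, with 0 members, and 8.54% did not overlap, with Tet3 alone among members. It averaged 4.82 ± 1.12 TPM in VillinCre;IPMKf/f and 9.001 ± 3.21 TPM in WT, a log2 difference of -0.76 (SD 0.35, n = 4 and 3). The tuft-identified wells were on 1 side, 1 of 51 wells in VillinCre;IPMKf/f and 18 of 39 in WT, and 11 of 15 tuft markers were lower in VillinCre;IPMKf/f by the same rule. Without those wells the Tet3 difference was 0.044 and no member met the rule. Without the highest well of each plate set Tet3 was at -0.27 and did not meet it either. Dnmt3a was at 2.62 ± 1.68 TPM in VillinCre;IPMKf/f and 9.97 ± 8.58 TPM in WT. Its log2 difference was -1.42 with the tuft-identified wells and 0.079 without them. That shift rested largely on 1 tuft-identified well of WT set 1, at 116.02 TPM, beside 5 other wells listed at 0. In WT set 3 tuft-identified wells averaged 3.43 TPM, below the 11.02 TPM of other wells. In WT set 6 they averaged 3.16 TPM, above the 1.45 TPM of other wells. Without WT plate set 6, Tet3 was at -0.51 and did not meet the rule, and Dnmt3a was at -2.08 and did.

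No plate set holds both genotypes, so genes with the same sign in all 7 sets were bound to share a sign between genotypes. For those 3 genes the class difference is given by genotype as a description. For Dnmt3a, tuft-identified minus other, it was 1.79 (SD 1.05, n = 4) in VillinCre;IPMKf/f and 0.87 (SD 0.23, n = 3) in WT; for Tet3 it was 1.45 (SD 0.49) in VillinCre;IPMKf/f and 1.12 (SD 0.25) in WT, and for Uhrf1 -1.40 (SD 0.73) in VillinCre;IPMKf/f and -1.05 (SD 0.11) in WT. The WT value of Dnmt3a is below 2-fold. The genotypes' class differences were not tested against each other.

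**Figure D4:**
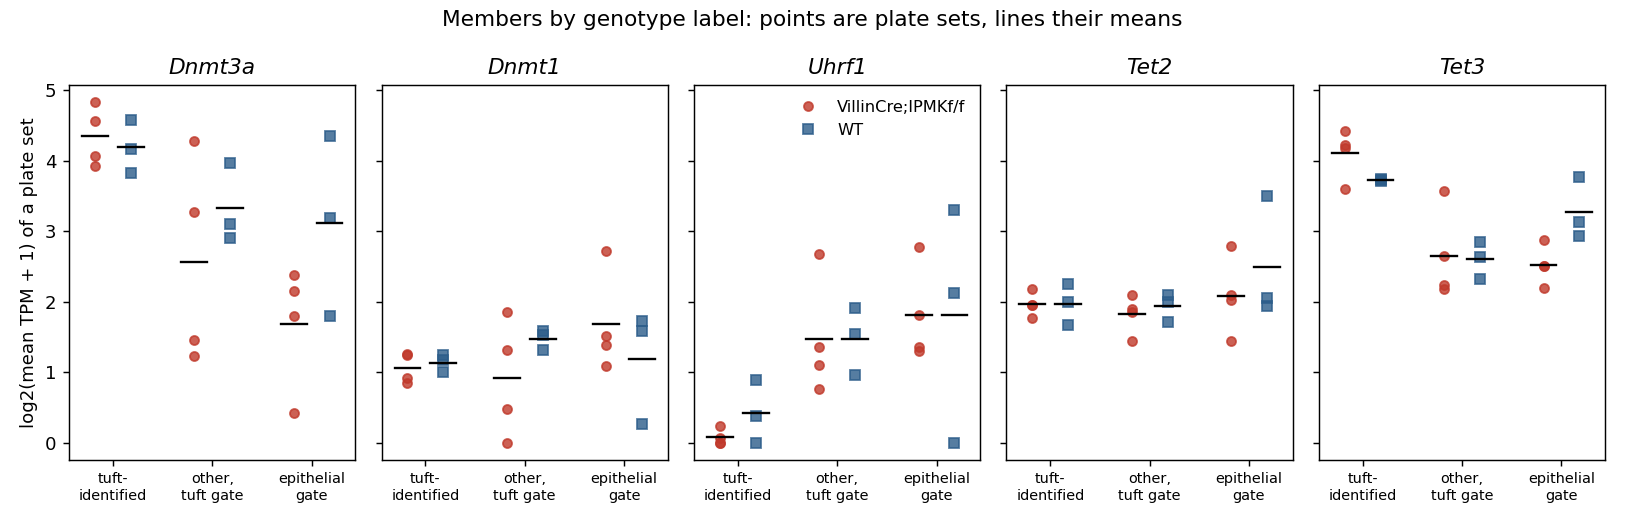
Level as log2(mean TPM + 1) of 5 members in 3 kinds of well; circles are plate sets labelled VillinCre;IPMKf/f (4, left), squares WT (3, right) and black lines their means. The genotypes overlap except for Tet3 in the epithelial gate, where the WT wells include 18 tuft-identified ones.

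Genes that read, aid or feed DNA methylation were counted in lists chosen for the pathway. Over all 4528 genes tested the median log2 class difference was 0.075, and 12.2% met the rule as higher and 12.8% as lower, so a count of 1 gene in a list of 5 is near the background. A gene that reached 5 TPM in 1 class alone had its direction set by that floor. Among methyl-CpG readers, Zbtb4, Mbd5 and Mbd6 met the size rule as higher in tuft-identified wells and Mbd2 as lower. Of these, Mbd6 alone reached 5 TPM in both classes, so the floor set the direction of the others. Zbtb4, a zinc finger protein that binds methylated CpG, was at 8.60 ± 1.96 TPM in tuft-identified and 1.17 ± 0.897 TPM in other wells (log2 difference 2.20). Mbd5 was at 8.58 ± 4.69 TPM in tuft-identified and 1.39 ± 0.993 TPM in other wells (1.96), and Mbd6 at 20.8 ± 5.47 TPM in tuft-identified and 5.81 ± 4.41 TPM in other wells (1.94). Mbd5 and Mbd6 share the methyl-binding fold but do not bind methylated DNA. Mbd2, which does bind it and belongs to the NuRD complex, ran the other way at 1.81 ± 0.557 TPM in tuft-identified and 6.84 ± 4.64 TPM in other wells (-1.33). Uhrf2, the paralog of Uhrf1, was at 7.68 TPM in tuft-identified and 4.30 TPM in other wells, a log2 difference of 0.88 that did not reach 2-fold. It was the more abundant of the pair in both classes.

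Of the demethylation and repair partners 5 of 14 reached the floor, with a median of -0.40, and 1 met the rule. Some of the 5, Tdg among them, reached the floor in other wells alone, which set their direction, so nothing is read from this median. The gene that met the rule was Gadd45g, a stress-induced factor linked to demethylation. Gadd45g was at 28.1 ± 7.50 TPM in tuft-identified and 5.45 ± 2.71 TPM in other wells (log2 difference 2.25). Ogt, the glycosyltransferase that binds TET proteins, was at 20.2 TPM in tuft-identified and 10.7 TPM in other wells (0.93), while the glycosylase Tdg, which excises oxidised methylcytosine, was at 2.91 TPM in tuft-identified and 5.20 TPM in other wells (-0.52, SD 1.62). Of the 22 DNMT partners and histone cues, 20 were matched by symbol and 5 reached the floor, with a median of 0.69. The gene at that median reached the floor in tuft-identified wells alone, which set its direction. Trim28, a corepressor, met the rule at 13.4 ± 5.08 TPM in tuft-identified and 6.30 ± 3.48 TPM in other wells (1.05). The histone H3K9 methyltransferases Ehmt2, at 18.01 TPM in tuft-identified and 12.3 TPM in other wells, and Ehmt1, at 11.8 TPM in tuft-identified and 6.79 TPM in other wells, did not.

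Enzymes of methyl donor and cofactor supply had a median of -0.77 over the 7 of 17 that reached the floor, and 2 met the rule as lower. Both of these, and others of the 7, reached the floor in other wells alone. That set their direction, so nothing is read from this median or count. Shmt1, which feeds one-carbon units, was at 1.12 ± 1.34 TPM in tuft-identified and 7.33 ± 2.94 TPM in other wells (-2.08), and Idh3a, a subunit of the mitochondrial isocitrate dehydrogenase that makes 2-oxoglutarate, a TET cosubstrate, at 4.12 ± 0.392 TPM in tuft-identified and 10.7 ± 3.14 TPM in other wells (-1.15). Mat2a, which makes S-adenosylmethionine, was at 13.3 TPM in tuft-identified and 11.6 TPM in other wells (0.16). Of DNA replication and mitosis genes 4 of 20 reached the floor, with a median of -1.79, and 3 met the rule as lower. Tyms, which makes thymidylate, was at 3.19 TPM in tuft-identified and 29.3 TPM in other wells. The mitotic kinase Cdk1 was at 0.754 TPM in tuft-identified and 6.19 TPM in other wells. The replicative helicase subunit Mcm7 was at 1.83 TPM in tuft-identified and 5.12 TPM in other wells. All 4 reached the floor in other wells alone, which set their direction, so nothing is read from this median or count. Between gates Gadd45g was the gene reported here from the 5 lists that met the rule, at 18.98 TPM in the tuft gate and 8.05 TPM in the epithelial gate (1.43). In tuft-identified and in other wells of the tuft gate no gene reported here from the 5 lists met the genotype rule. In the epithelial gate Ehmt2 met it as lower, at 7.70 TPM in VillinCre;IPMKf/f and 18.2 TPM in WT (-1.30). Tuft-identified wells there were 1 of 51 in VillinCre;IPMKf/f and 18 of 39 in WT, and their part in the Ehmt2 difference was not tested.

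**Figure D5:**
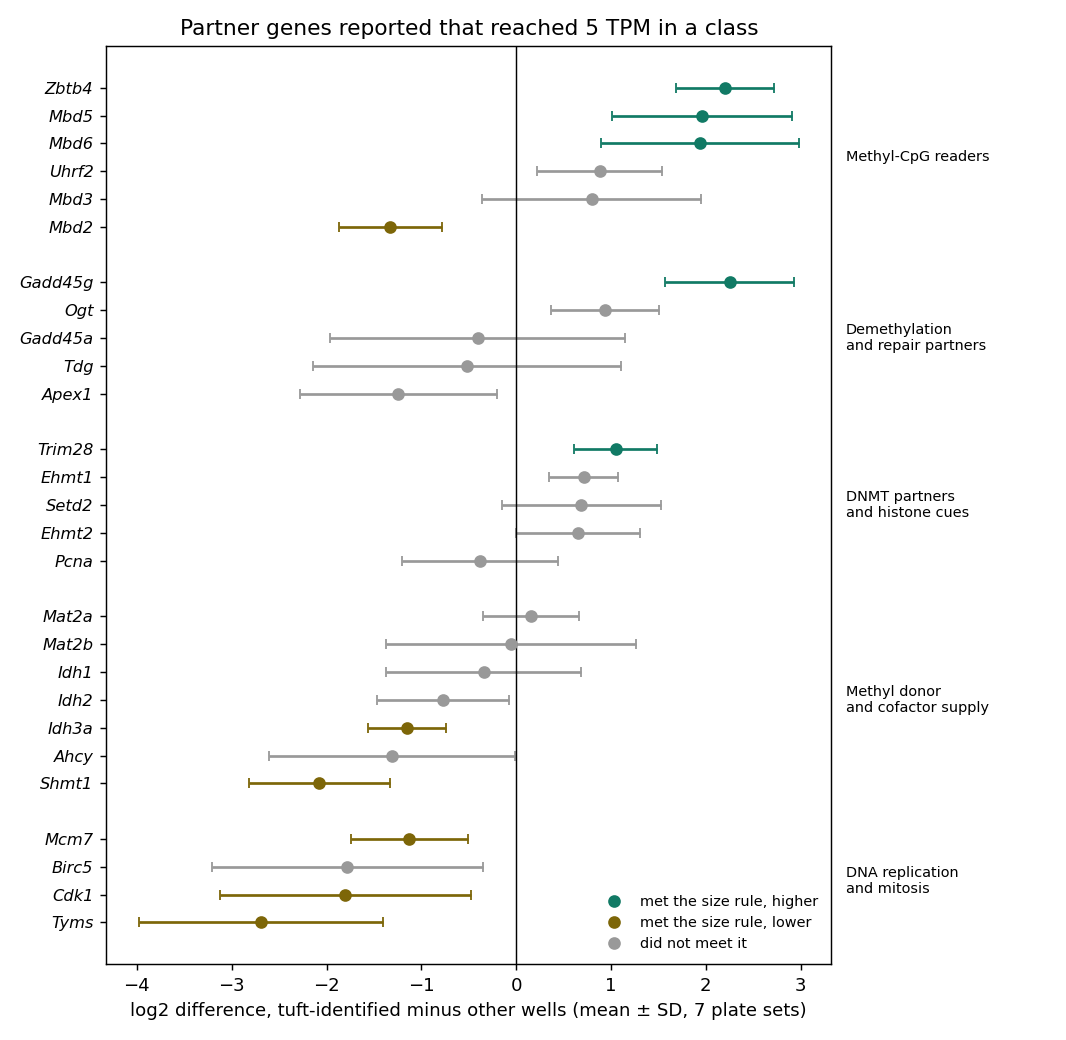
Mean log2 difference, tuft-identified minus other wells (x axis), with SD over 7 plate sets (bars), for genes reported here from 5 pathway lists that reached 5 TPM in a class; colours mark genes that met the size rule. Mbd2 lies at -1.33, and replication genes lie to the left. Of the readers plotted, Mbd6 alone reached 5 TPM in both classes, so that floor set the side of the others. The replication genes reached 5 TPM in other wells alone, so that floor set their side.

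Over the 14 points made by 7 plate sets and 2 classes, which share libraries, the genes most like Dnmt3a among 4128 candidates were Rhog (Pearson r = 0.94), Ptprc (0.92), Jak1 (0.92), Neurl3 (0.92) and Cptp (0.91). Those most like Tet3 were Strbp (0.94), Cpne3 (0.93), an unnamed clone-based entry, Rab27b (0.92) and Zgpat (0.92). Dclk1, whose level was part of the class rule, had r = 0.90 with Tet3 and 0.55 with Dnmt3a, and Dnmt3a and Tet3 had r = 0.46 with each other. Ptprc, the CD45 gene, is also high in leukocyte-marker wells, at 49.3 TPM, beside 10.9 TPM in tuft-identified wells.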

How the data were processed

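Single cells of mouse colon were sequenced by Smart-seq2, and the authors deposited 1 table of TPM per gene and well. Per the submitters' processing notes, Bowtie2 2.4.2 and RSEM 1.3.3 were named with the build mm10, and the deposited TPM values sum to 1e+06 in each well with a value. Of 1203 wells, 1165 columns matched a label and 38 columns were not used. Depth is unknown, which limits precision, and 0 TPM can be a missed transcript. No column among the kept wells was identical to another.

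Wells were averaged within plate set and class, log2(mean TPM + 1) was taken, and plate sets were weighted equally (Python 3.11.15, numpy 2.4.6, pandas 2.3.3, scipy 1.17.1). Genes reaching a mean of 5 TPM entered each comparison, and the size rules stated in the report, checked on simulated data, replaced tests. The genes named are the 7 members, genes of the lists that met the rule or, in a list with none, the 3 highest, and the 5 most alike to Dnmt3a and Tet3; Uhrf2, Ogt, Tdg, Ehmt1, Mat2a and Ptprc levels were chosen after their values were seen. Members and lists were chosen with earlier results of these data known. Other pseudocounts, floors, well filters, thresholds, rescaling, and leaving out each plate set were tried. Means without the highest wells, without leukocyte-marker wells, and the division by marker sums were added after seeing the data. A gene of the methyl-CpG reader list is not reported here, and that list's counts and median are left out.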

Additional observations from a re-analysis of the deposited data

Results flagged for a closer look

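In 28 groups of 4 to 7 plate sets searched, 3 held a plate set far from the rest. The usual rate of about 1 in 20 groups assumes normally distributed values, so it does not hold for genes mostly at 0. Groups listed at 0 in every set could not be flagged. Dnmt1 averaged 5.60 TPM in the epithelial gate of plate set 4, labelled VillinCre;IPMKf/f, the highest of 4 such sets. Of this, 1 well not identified as tuft stood at 26.05 TPM, and the wells not identified averaged 5.17 TPM with it and 2.18 TPM without it. Tet1 averaged 0.466 TPM in the epithelial gate of plate set 2, also labelled VillinCre;IPMKf/f, while the other 3 sets were listed at 0. With those 3 at 0, any value in set 2 was bound to be flagged. The Tet1 value came from 1 of 19 wells, at 8.86 TPM, and was 0 without it. The Uhrf1 log2 difference, tuft-identified minus other wells, was -2.44 in plate set 4, the lowest of 7. Other wells of that set averaged 5.39 TPM, and 3.13 TPM without the highest well. No explanation was tested for these values.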

How the results depend on the processing

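The Dnmt3a class difference kept its sign in 25 of 25 alternatives (0.71 to 1.79), as did those of Tet3 (0.67 to 1.56) and Uhrf1 (-3.11 to -0.23). With a pseudocount of 10 TPM, Tet3 was 0.67, Uhrf1 was -0.23, and 0 members met the class rule. Uhrf1 was -3.11 with a pseudocount of 0.1, -0.38 as a mean over wells of log2 values, and -2.62 after rescaling. In place of 2, the number of members higher was 0 in wells with at least 2000 genes, 1 (Tet3) with Trpm5 and Dclk1 at 10 TPM and in WT sets alone, and 1 (Dnmt3a) with 100 and 200 TPM and on first plates alone. In place of 0, 1 member (Uhrf1) was lower after rescaling, with a floor of 2 TPM and with no floor. Leaving out 1 plate set gave 1.15 to 1.53 for Dnmt3a, 1.19 to 1.38 for Tet3 and -1.33 to -1.05 for Uhrf1.

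Between gates, in place of 1 member higher, there were 0 with a pseudocount of 10, as a mean of log2 values, with at least 500 genes and in WT sets alone. There were 2 after rescaling, in VillinCre;IPMKf/f sets alone and for tuft-identified against not identified wells, and 1 to 2 when a plate set was left out, with 2 without set 6. Between genotypes in other wells, 1 member (Dnmt3a) was lower without the highest wells, in place of 0. In the epithelial gate, in place of 1 member lower, there were 0 with a pseudocount of 10, as a mean of log2 values, with at least 2000 or 500 genes, after rescaling, with a floor of 10 TPM, without the highest wells, and without tuft-identified wells, where Tet3 was 0.044. The fewer tuft wells are part of that last alternative; otherwise the cause was not tested. No paired analysis was possible because no plate set holds both genotypes and no label names an animal. Unknown depth limits what 0 TPM can show.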
